A study of Mus musculus with 20 samples.

Results

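Genes whose proteins move protons, bicarbonate, sodium, chloride and water across membranes were followed in small RNA libraries of mouse cauda epididymosomes, which are vesicles that the epididymis sheds into the fluid of its last segment. Members were taken by gene symbol alone. They are the protein-coding entries of the V-ATPase subunits (Atp6v), the Slc4a, Slc9a and Slc26a families, the carbonic anhydrases (Car), the aquaporins (Aqp), the chloride channel Cftr and the 3 subunits of the epithelial sodium channel (Scnn1a, Scnn1b and Scnn1g). This gave 78 genes of 18880 protein-coding genes in either table, of which 64 were in both tables. The 2 deposited tables are labelled by whether a size selection was made. The one labelled with it is the deeper and is called the deep table below, and the other the shallow table. The deep table held 74 of the members and the shallow one 68. They fell into 13 subunits of the V1 sector and 9 of the Vo sector of the V-ATPase, 14 carbonic anhydrases, 9 Slc4a, 9 Slc9a and 9 Slc26a transporters, 8 aquaporins and 4 channels. The symbols also drew in 3 genes that are no transporters: Slc9a3r1 and Slc9a3r2, which are scaffold proteins, and Slc4a1ap.

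Vesicles were pelleted by ultracentrifugation from the cauda fluid of 9-month-old males after the sperm had been removed by swim-up, and their RNA went into NEBNext small RNA libraries. The Control group held 5 males from litters left undisturbed (animals 3, 5, 7, 9 and 11). The MSUS group held 5 males (animals 2, 4, 6, 8 and 14) whose litters were separated from the dam for 3 h a day, at unpredictable times, over the first 2 weeks of life, while the dams were stressed by forced swimming or restraint. The labels name no strain and give no litters, so some animals may be siblings and p-values measure only the spread between these males. Each library was sequenced in 2 runs, each with a table of its own, which gives 20 samples of 10 animals.

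The epididymal epithelium acidifies the fluid in which sperm are stored. Clear cells pump protons into the lumen with a V-ATPase, a rotary pump whose cytoplasmic V1 sector splits ATP and whose membrane Vo sector carries the protons. Principal cells reabsorb bicarbonate by sodium proton exchange with the help of carbonic anhydrases, and pass water and small solutes through aquaporin 9. These libraries were made to capture short RNA, so a count on one of these genes is a short fragment of its RNA, and levels are those of fragments in vesicles, not of transcripts in cells. Fewer vesicles from a cell type and less RNA per vesicle cannot be told apart in such bulk samples.

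Library totals were 1872084 to 3647956 estimated counts in the deep table and 215231 to 871461 in the shallow one. Mature miRNAs took 10.9 to 17.0% of counts in the former and 52.4 to 72.2% in the latter. That is the reverse of what a selection for RNA of miRNA size would give, but the labels name no size range. No direction between the tables can therefore be read as an effect of size selection. Counts on the transport genes summed to 869.6 to 4889 per library in the deep table and to 43.0 to 407 in the shallow table. In the former, 38 members had at least 1 count in every library, 14 in 5 to 9 libraries, 21 in 1 to 4, and 1 (Car5a) in none. In the latter, 8 members had at least 1 count in every library and 11 had less than 1 in each. A filter on low counts left 32 members for the test in the deep table and 3 in the shallow table. CPM below relates a count to the library's counts on all features that passed this filter, after scaling by the trimmed mean of M-values (TMM). Markers of the epididymal epithelium summed to 2003 to 2865 CPM in Control and 2033 to 2820 CPM in MSUS in the deep table. All 10 of that list were in that table.

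V-ATPase subunits are encoded in part by closely related genes, one broadly expressed and the other restricted to acid-secreting cells or a few tissues. Short fragments tell such genes apart only where their sequences differ, so 60 coding bases around the longest exact run that 2 partners share are shown for 4 pairs, 5′ to 3′ in the sense of the gene, with the shared run in capitals. They come from the GENCODE vM21 transcripts of GRCm38, and positions count from 1 at the start codon. The B subunit pair shared a run of 26 bases, the a subunit pair 18, the d subunit pair 17 and the C subunit pair 15. Atp6v1b1 lies at chr6:83742990-83758855 on the plus strand and Atp6v1b2 at chr8:69088646-69113711 on the plus strand.
Atp6v1b1, coding bases 827 to 886: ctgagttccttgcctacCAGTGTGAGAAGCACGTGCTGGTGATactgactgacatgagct
Atp6v1b2, coding bases 845 to 904: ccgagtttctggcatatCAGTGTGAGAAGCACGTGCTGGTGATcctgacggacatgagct
Atp6v0a4, coding bases 1543 to 1602: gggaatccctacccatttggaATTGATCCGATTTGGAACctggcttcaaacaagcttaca
Atp6v0a1, coding bases 1555 to 1614: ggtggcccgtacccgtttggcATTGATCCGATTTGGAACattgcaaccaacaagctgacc
Atp6v0d2, coding bases 139 to 198: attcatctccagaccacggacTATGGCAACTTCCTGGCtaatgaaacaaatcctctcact
Atp6v0d1, coding bases 139 to 198: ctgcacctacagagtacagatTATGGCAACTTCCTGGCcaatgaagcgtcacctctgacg
Atp6v1c2, coding bases 731 to 790: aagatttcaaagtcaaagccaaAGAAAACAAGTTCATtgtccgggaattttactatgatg
Atp6v1c1, coding bases 704 to 763: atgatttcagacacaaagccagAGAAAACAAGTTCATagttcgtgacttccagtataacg

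In these windows the B pair was identical at 53 of 60 bases, the a pair at 46, the d pair at 44 and the C pair at 46. Over whole coding sequences, 70 of the 78 members had under 5% of their 20-base runs in common with any other annotated gene, and 21 had none. The exceptions with levels below are these. Atp6v0c shared 95.5% of its 20-base runs, most with its pseudogene Atp6v0c-ps2, Atp6v1g1 shared 89.2%, most with the pseudogene Gm13453, and Atp6v1f shared 74.3%, most with AC169506.3. Gm13453 itself was assigned 179.5 counts in the deep table, against 662.5 for Atp6v1g1. Counts of these 3 genes are therefore uncertain as counts of one locus. Atp6v1a shared 13.7% of its runs, all of them with Gm18990. Car5b shared 12.4%, and its pseudogene Gm43512 was assigned 14 counts against 649. Slc9a3r1 shared 7.08%, and its copy Gm37103 was assigned 138.5 counts against 3456.5.

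Counts, not corrected for length, were highest on the V-ATPase. V1 subunits took 36.5% and Vo subunits 18.7% of the counts on the members in the deep table, followed by the scaffold and other non-transporter genes with 17.0%, aquaporins with 7.69%, carbonic anhydrases with 5.66%, Slc4a transporters with 5.11%, Slc26a transporters with 4.34%, Slc9a exchangers with 3.98% and channels with 0.962%. The same order held for the first 4 of these groups in the shallow table, at 27.3, 21.8, 15.0 and 9.71%. The 5 genes with the most counts held 41.3% of member counts in the deep table and 37.9% in the other. Most counts of these genes were on their protein-coding transcripts (83.9% and 83.3%), with 9.46% and 8.90% on retained-intron transcripts.

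Levels of different genes were compared per kilobase of exon, as longer RNAs give more fragments. The length was that of all annotated exons of a gene, while the counts were those on its protein-coding transcripts alone. Levels and shares per kilobase are therefore approximate, and by how much differs between genes. Among V1 subunits in the deep table, Atp6v1g1, of a peripheral stalk, had 20.4 CPM per kb, Atp6v1d, of the central rotor, 11.7, Atp6v1e1, also of a stalk, 11.3, and Atp6v1f, of the rotor, 9.85 CPM per kb. The catalytic subunit Atp6v1a followed with 6.63, the B subunit Atp6v1b2 with 6.52, Atp6v1g3 with 4.35, Atp6v1c1 with 4.12 and the regulatory subunit Atp6v1h with 3.75 CPM per kb. Their mean levels over 10 libraries, not per length, were 23.1 CPM for Atp6v1g1, 53.7 for Atp6v1d, 46.6 for Atp6v1e1 and 40.0 for Atp6v1a. Among Vo subunits, Atp6v0d1, which couples the sectors, had 16.5 CPM per kb and Atp6v0a1, the large subunit next to the proton path, 8.44 CPM per kb. Atp6v0a1 varied little between animals in the deep table. In the shallow one it ran from 4.76 CPM in MSUS animal 8 to 45.3 CPM in Control animal 3. Its levels in the deep table were 54.9, 57.6, 62.9, 53.4 and 60.3 CPM in Control animals 3, 5, 7, 9 and 11, and 55.2, 59.5, 51.9, 51.8 and 45.7 CPM in MSUS animals 2, 4, 6, 8 and 14. The groups overlapped, with MSUS animal 14 lowest and Control animal 7 highest.

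**Figure D1:**
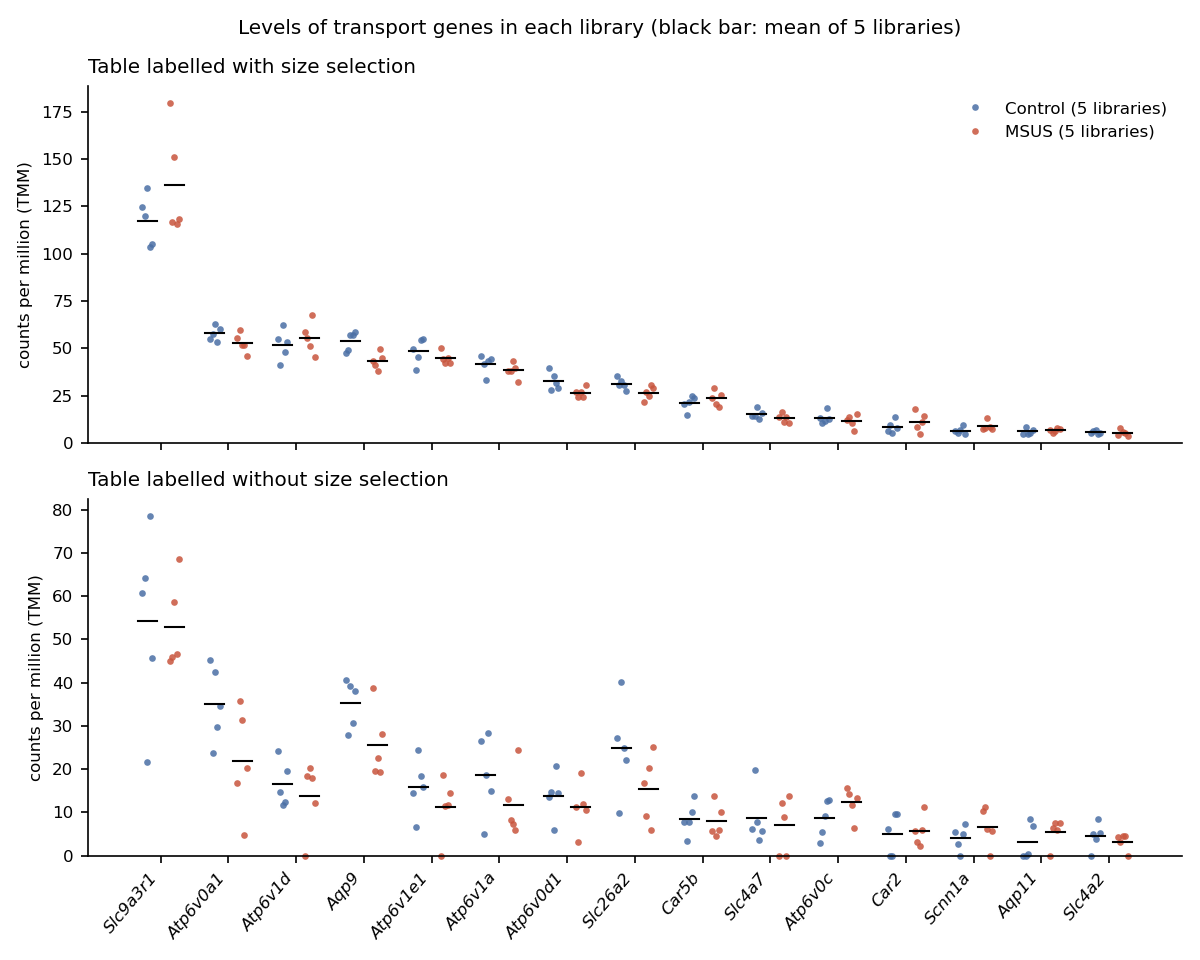
Levels of 15 transport genes in TMM-scaled CPM (linear axis), with 1 point per library, Control in blue and MSUS in red, and the mean of 5 libraries as a black bar, in the deep table (top) and the shallow table (bottom). Slc9a3r1 has a mean of 127 and 53.5 CPM in the 2 panels, and the groups overlap for each gene in the top panel.

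Subunit isoforms known from acid-secreting cells were present beside their broad partners, at shares that differed from subunit to subunit. All these shares are of counts on protein-coding transcripts only. Atp6v1b1, the B subunit of epididymal clear cells and renal intercalated cells, had 81.9 of the B subunit counts summed over the 10 libraries of the deep table, against 1005 for Atp6v1b2, a share of 7.54% (exact 95% interval 6.04 to 9.28%). Intervals treat the rounded counts summed over the 10 libraries as independent draws, so they leave out the spread between animals. They also leave out duplicate reads, as no molecular identifiers are named in the labels. The counts of Atp6v1b1 per library were 3.67, 4.42, 5.33, 28 and 11.5 in Control animals 3, 5, 7, 9 and 11, and 10.3, 4.33, 5.17, 0 and 9.17 in MSUS animals 2, 4, 6, 8 and 14. Control animal 9, the library with the most counts on these genes, was highest, and MSUS animal 8, with the fewest, had none, which allows up to 3 counts there. As a share of B subunit counts, Atp6v1b1 ran from 4.67 to 10.7% over the Control libraries and 0 to 10.4% over the MSUS libraries, which overlap.

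The a subunit isoform Atp6v0a4, also known from those cells, held 2.56% (exact 95% interval 1.87 to 3.43%) of the a subunit counts, and Atp6v0a2, known from the Golgi and endosomes, 6.70% (exact 95% interval 5.56 to 7.99%). Protein-coding transcripts held 43.6% of all counts of Atp6v0a2 but 74.8% of those of Atp6v0a1. For the B subunit they held 84.5% for Atp6v1b1 and 62.7% for Atp6v1b2. Shares over all transcript types would therefore differ from these, which the intervals do not cover. The restricted isoforms of the other subunits held larger shares. They were 21.9% (exact 95% interval 19.5 to 24.5%) for Atp6v0d2, 25.5% (exact 95% interval 22.6 to 28.5%) for Atp6v1c2, 26.4% (exact 95% interval 23.6 to 29.4%) for Atp6v1g3 and 33.2% (exact 95% interval 30.0 to 36.7%) for Atp6v0e2. The share of Atp6v1g3 is taken mostly against Atp6v1g1, whose 662.5 counts are uncertain as counts of one locus, so this share is uncertain too. Shares per kilobase of exon were 8.98% for Atp6v1b1, 3.36% for Atp6v0a4, 15.6% for Atp6v0d2, 17.8% for Atp6v1g3 and 46.8% for Atp6v1c2, so that of these 5 isoforms only the share of Atp6v1c2 moved by over 1.5 times. Atp6v1e2, known from testis, and Atp6v1g2, known from brain, were close to absent. Atp6v1e2 held 0.195% of E subunit counts (0.612% per kilobase of exon) and Atp6v1g2 0.606% of G subunit counts (0.307% per kilobase of exon). Atp6v1g3 ran from 10.9 to 31.7% over the Control libraries and 23.4 to 40.1% over the MSUS libraries, and Atp6v0d2 from 9.14 to 29.1% over the Control libraries and 16.4 to 24.3% over the MSUS libraries, so the groups overlapped for both. Atp6v1c2 ran from 14.0 to 31.3% over the Control libraries and 6.31 to 29.1% over the MSUS libraries, which overlap too. In the shallower table the shares were 10.6% for Atp6v1b1, 22.2% for Atp6v0d2, 30.5% for Atp6v1c2 and 23.3% for Atp6v1g3, each within wide intervals (for Atp6v1b1, 3.82 to 20.8%).

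**Figure D2:**
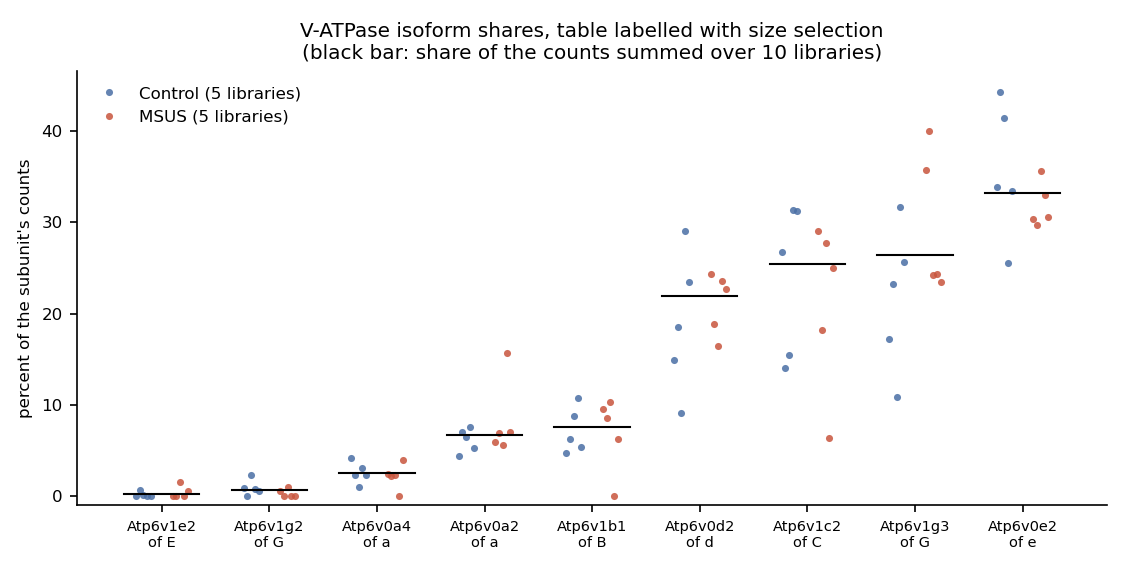
Share of each V-ATPase subunit's counts on protein-coding transcripts held by the named isoform, in percent, in the deep table. There is 1 point per library (Control in blue, MSUS in red), with the share of the summed counts as a black bar. Atp6v1b1 and Atp6v0a4 stand at 7.54% and 2.56%, and Atp6v0e2 is highest at 33.2%.

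Slc9a3r1 (NHERF1) is a scaffold that tethers Slc9a3, Cftr and other apical membrane proteins to the cytoskeleton, and it lies at chr11:115163341-115181181 on the plus strand. It was the most abundant member in both tables, at 65.9 CPM per kb in the deep table, where it ranked number 76 of 17542 protein-coding genes with a length, and at 27.8 CPM per kb in the other. Its levels in the deep table were 124, 119.7, 134, 103 and 105 CPM in Control animals 3, 5, 7, 9 and 11, and 179.8, 117, 151, 116 and 118 CPM in MSUS animals 2, 4, 6, 8 and 14. MSUS animals 2 and 6 were above every Control animal, and the other MSUS animals lay within the Control range. Genes of the proteins it tethers had few counts. Slc9a3, the apical sodium proton exchanger, had 89.0 counts in all, from 7, 2, 6, 22 and 12 in the Control and 10, 7, 7, 5 and 11 in the MSUS libraries. Cftr summed to 6.13 counts and passed 1 count only in Control animal 9.

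Of the sodium proton exchangers of apical membranes, Slc9a3 had 0.606 CPM per kb and Slc9a2 had 18.7 counts in all. Among the bicarbonate transporters, the sodium-driven carriers Slc4a8 (1.40 CPM per kb) and Slc4a7 (0.929) stood above the anion exchanger Slc4a2 (0.644) and the basolateral carrier Slc4a4 (0.261). The Slc26a group was made up mostly by Slc26a2, a sulfate transporter, with 822 of its counts at 2.34 CPM per kb. The chloride bicarbonate exchangers Slc26a3 and Slc26a6 had 69.6 and 8.24 counts in all.

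Carbonic anhydrases hydrate carbon dioxide to bicarbonate and a proton. The mitochondrial Car5b had 649 counts, the cytosolic Car2, which is abundant in clear cells, 302, and Car3, known from muscle and fat, 244. Per kilobase they had 3.50, 4.07 and 3.02 CPM. The membrane-bound Car12 and Car14 had 25.2 and 24.3 counts, and Car4 was listed in neither table. Car2 was uneven between animals, at 6.47, 9.30, 5.11, 13.7 and 8.06 CPM in Control animals 3, 5, 7, 9 and 11, and 18.1, 8.50, 4.52, 10.8 and 14.1 CPM in MSUS animals 2, 4, 6, 8 and 14. The highest and the lowest value were both in the MSUS group.

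Aquaporin counts were mostly on Aqp9, the aquaglyceroporin of the apical membrane of principal cells, at chr9:71110659-71168682 on the minus strand. It had 1437 counts and 11.7 CPM per kb in the deep table. Aqp11, an intracellular form, followed with 178 counts, and Aqp1 and Aqp2 with 47.0 and 36.0. Of the epithelial sodium channel, Scnn1a had 208 counts over all 10 libraries, while Scnn1b and Scnn1g had 1.17 and 1 counts, all in the library of MSUS animal 2.

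Whether early-life adversity goes with other levels of these genes was asked by setting MSUS against Control within each table. No member passed the test in either table. For the deep table, a total of 32 members were tested with edgeR's quasi-likelihood test and 0 were called at a Benjamini-Hochberg adjusted p under 0.05, where the share called among all 10998 features was 0%. At an unadjusted p under 0.05, 2 members were lower and 0 higher in MSUS, against 255 and 380 of all features. Of the 32, 10 had a higher and 22 a lower estimate in MSUS, with a median log2 fold change of -0.11, beside 5476 higher and 5522 lower and a median of -0.00 for all features, and 3291 higher and 4048 lower and a median of -0.03 for protein-coding entries. Estimates were lower for 7 of 10 V1 subunits, 7 of 8 Vo subunits and 3 of 3 Slc4a transporters, and higher for 2 of 3 carbonic anhydrases. Without MSUS animal 14 the median was -0.01, with 16 higher and 16 lower. DESeq2 called 33 features, limma-voom 0, and neither called a member.

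The smallest p among the members was that of Aqp9. Its levels in the deep table were 47.6, 49.2, 56.8, 57.2 and 58.5 CPM in Control animals 3, 5, 7, 9 and 11, and 43.2, 41.3, 37.8, 49.6 and 45.0 CPM in MSUS animals 2, 4, 6, 8 and 14. All 5 MSUS values were below the Control mean, and only MSUS animal 8 reached into the Control range. Means were 53.9 ± 5.05 in Control and 43.4 ± 4.38 in MSUS (SD, n = 5 each), a log2 fold change of -0.32 (SE 0.106, adjusted p = 0.839 by edgeR). Before adjustment p was 0.00867 by the same edgeR fit. In the shallow table, which repeats the same animals, Aqp9 was at 40.6, 28.0, 39.2, 30.6 and 38.1 CPM in Control and 38.9, 19.7, 22.5, 19.4 and 28.1 CPM in MSUS. There 4 of 5 MSUS animals were below the Control mean and the groups overlapped, with a log2 fold change of -0.49 (SE 0.253, adjusted p = 0.554 by edgeR). Most protein-coding entries tested in that table were lower in MSUS too, 413 of 517, with a median of -0.20.

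Atp6v0d1 was the other member with an unadjusted p under 0.05. It was at 39.7, 27.9, 35.1, 31.7 and 29.2 CPM in Control and 27.1, 24.4, 26.8, 24.1 and 30.6 CPM in MSUS, so that 5 of 5 MSUS animals were below the Control mean while animal 14 lay inside the Control range. It had a log2 fold change of -0.27 (SE 0.122, adjusted p = 0.859 by edgeR). Slc4a7 had -0.24 (SE 0.160). Slc26a2 had a log2 fold change of -0.24 (SE 0.119, adjusted p = 0.879 by edgeR), also with 5 of 5 MSUS animals below the Control mean. The catalytic subunit Atp6v1a had -0.14 (SE 0.116), Atp6v1e1 -0.12 (SE 0.115), Atp6v1d 0.08 (SE 0.133), Atp6v1g1 -0.10 (SE 0.129), Atp6v0a1 -0.14 (SE 0.103) and Atp6v0c -0.16 (SE 0.200). Without Control animal 9 the estimate for Atp6v0c was 0.028, and without MSUS animal 14 that for Slc4a2 was 0.0084, against -0.18 with all libraries.

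None of the estimates above 0 passed the test. Car2 had a log2 fold change of 0.43 (SE 0.315, adjusted p = 0.912 by edgeR), Scnn1a a log2 fold change of 0.29 (SE 0.236, adjusted p = 0.926 by edgeR) and Slc9a3r1 a log2 fold change of 0.22 (SE 0.150, adjusted p = 0.895 by edgeR). Scnn1a was above the Control mean of 6.45 CPM in 5 of 5 MSUS animals, at 7.22, 7.83, 13.2, 8.46 and 7.07 CPM, but Control animal 9 had 9.36 CPM and lay above 4 of them. Leaving out 1 animal moved these estimates by over 1.5 times without ending or making a call. Car2 was 0.20 without MSUS animal 2 and 0.76 without Control animal 9, Scnn1a was 0.13 without MSUS animal 6, 0.14 without Control animal 11 and 0.56 without Control animal 9, and Slc9a3r1 was 0.098 without MSUS animal 2. Car5b and Aqp11 had 0.14 (SE 0.151) and 0.19 (SE 0.203). When counts were scaled by library size alone, all 32 members were lower in MSUS and the median of all features was -0.58, so a direction here is relative to the other RNAs of the library.

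**Figure D3:**
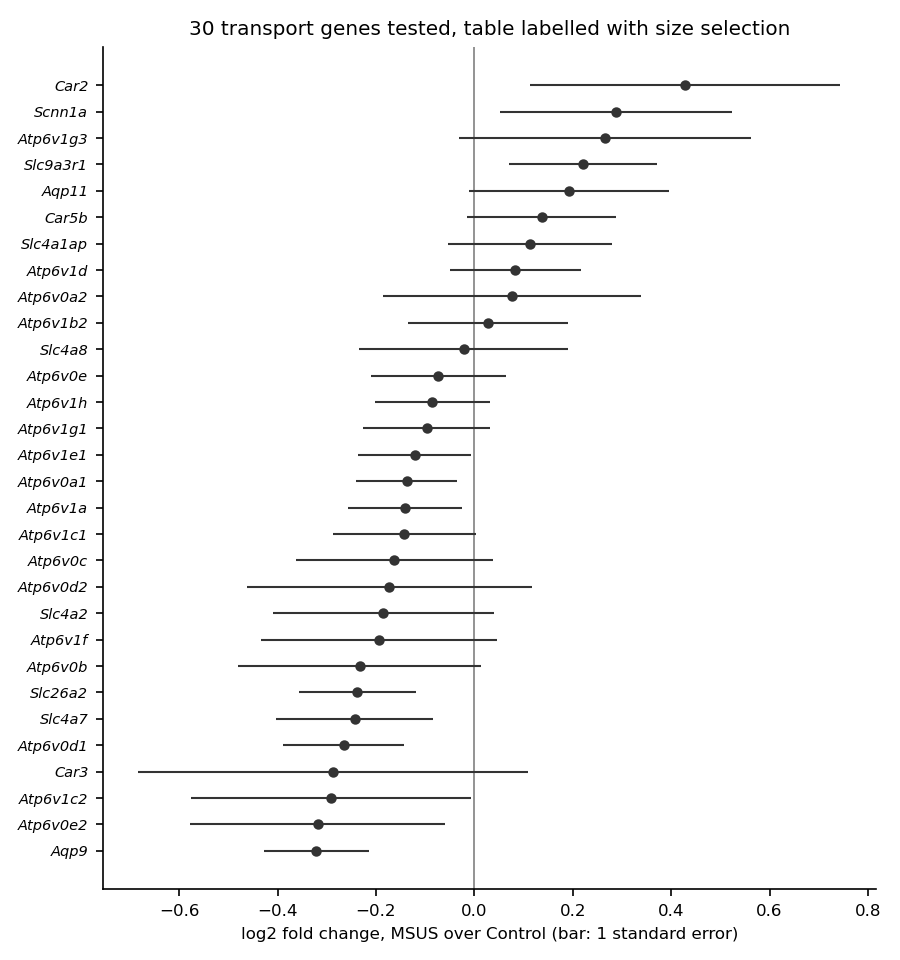
Log2 fold change of MSUS over Control for 30 of the 32 transport genes tested in the deep table (Slc9a exchangers are not drawn), ordered by value, with bars of 1 standard error. Points run from -0.32 for Aqp9 to 0.43 for Car2, and none passed an adjusted p under 0.05.

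For none of the 32 members were all MSUS libraries on one side of all Control libraries, and 0.909% of all features tested were so separated. The shallow table left 3 members to test, and 0 were called, with 0% called among 1075 features, and an unadjusted p under 0.05 was reached by 0 members, against 38 features higher and 47 lower. Atp6v0a1 had a log2 fold change of -0.51 (SE 0.307, adjusted p = 0.568 by edgeR) there and Slc9a3r1 a log2 fold change of -0.04 (SE 0.273, adjusted p = 0.967 by edgeR), the latter 0.14 without Control animal 9. Of 517 protein-coding entries tested there, 104 were higher and 413 lower in MSUS, with a median of -0.20. Whether the MSUS effect differed between tables was tested as an interaction for 29 members. The test called 0 of them and 0% of 8109 features, with 0 members and 187 features higher and 85 lower at an unadjusted p under 0.05. The smallest p of the interaction were those of Atp6v0e, at 0.78 (SE 0.448), and Atp6v0c, at -0.58 (SE 0.391). DESeq2 and limma-voom called 0 features in the shallow table.

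Markers of other cells were summed in the same libraries. In the deep table, the 10 sperm markers summed to 252 to 396 CPM in Control and 360 to 555 CPM in MSUS, with 10 of 10 tested higher in MSUS and 0 called. The 8 muscle and stroma markers summed to 286 to 611 and 373 to 927 CPM, the 7 blood markers to 88.4 to 154 and 112 to 172 CPM, the 4 basal cell markers to 14.0 to 28.1 and 18.9 to 27.1 CPM, and the 4 endothelial markers to 0.847 to 9.18 and 3.55 to 6.09 CPM. Of those tested, 7 of 8 muscle and stroma markers, 3 of 3 blood markers, 1 of 2 basal cell markers and 2 of 6 epithelial markers were higher in MSUS, with 0 called, and no endothelial marker was tested. Each of these markers was listed in that table. In the shallow table the sperm markers summed to 203 to 318 CPM in Control and 256 to 361 CPM in MSUS, with 3 of 3 tested higher. The muscle and stroma markers summed there to 187 to 312 and 158 to 351 CPM, with 1 of 2 tested higher, and the blood markers to 71.5 to 99.1 and 41.7 to 95.5 CPM, with the 1 tested lower. The epithelial markers summed to 1313 to 1570 CPM in Control and 1020 to 1537 CPM in MSUS, with 1 of 4 tested higher, and 0 markers were called in that table. Their part in the values of the transport genes was not tested.

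The transport genes took a lower mean share of all counts in MSUS libraries, and a slightly higher one of protein-coding counts in the deep table, and neither was tested. They took 0.0991 ± 0.0234% of all counts in Control and 0.0650 ± 0.0256% in MSUS in the deep table (SD, n = 5 each), with overlapping ranges of 0.0809 to 0.137% and 0.0325 to 0.102%. Protein-coding entries as a whole took 23.7 ± 5.02% and 15.4 ± 6.42% of counts in the same libraries. Of protein-coding counts, the transport genes took 0.416 ± 0.0102% in Control and 0.424 ± 0.0201% in MSUS, and lay between 0.404 and 0.454% in all 10 libraries. The shallow table gave 0.0434 ± 0.0126% and 0.0292 ± 0.00799% of all counts, and 0.408 ± 0.0582% and 0.386 ± 0.0441% of protein-coding counts.

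**Figure D4:**
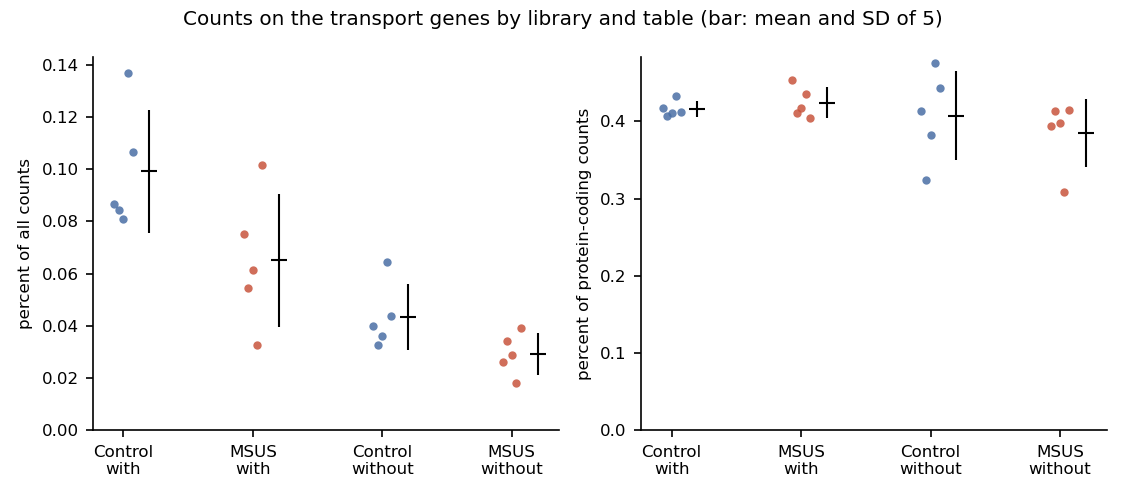
Counts on the transport genes as a percent of all counts (left) and of protein-coding counts (right), with 1 point per library, Control in blue and MSUS in red, and the mean and SD of 5 libraries beside the points, for the deep (with) and the shallow (without) table. In the deep table, the mean is 0.0991% in Control and 0.0650% in MSUS on the left, and 0.416 and 0.424% on the right.

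Both tables hold the same 10 animals, and they were compared for the 21 members that passed the filter in a joint fit. That fit held condition but no term for the animal, so its p-values treat the samples of an animal as independent. Relative to the other RNAs, 5 V1 subunits were higher in the deep table: Atp6v1d, Atp6v1c1, Atp6v1e1, Atp6v1h and Atp6v1b2. Atp6v0e2 and Atp6v1f were lower. These are 5 and 2 of 21 members, where 19.9% of 5725 features were called higher and 18.8% lower, so that the first count is close to the background and the second below it. Of 4182 protein-coding entries tested, 758 were called higher and 514 lower. The median log2 difference was 0.09 over the members and 0.06 over all features. By role, the 5 called higher were among 8 V1 subunits tested, which also held Atp6v1f, called lower. None of 5 Vo subunits, 2 Slc4a transporters, Car5b, Slc26a2, Aqp9, Slc9a3r1 or Slc4a1ap was called higher. In the shallow table alone 0 V1 subunits passed the filter, so they could enter through the deep table, where the 5 were higher. Roles were chosen with earlier results known, and a difference between roles was not tested.

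Atp6v1d was higher in 10 of 10 animals. In the scaling of the joint fit it was at 41.3, 30.2, 45.9, 36.5, 39.7, 44.4, 41.3, 38.3, 50.3 and 34.3 CPM in the deep table and at 30.0, 18.5, 14.4, 15.8, 26.6, 0, 25.3, 29.5, 23.8 and 15.7 CPM in the other, for Control animals 3, 5, 7, 9 and 11 and MSUS animals 2, 4, 6, 8 and 14 in turn. The lowest value of the former, in Control animal 5, was above the highest of the latter, Control animal 3, with a log2 difference of 0.95 (SE 0.180, adjusted p = 9.05e-05) by edgeR. Atp6v1e1 had a log2 difference of 0.88 (SE 0.172, adjusted p = 0.000134) and Atp6v1h a log2 difference of 0.72 (SE 0.177, adjusted p = 0.00176) by the same edgeR test, each higher in 10 of 10 animals. Atp6v1c1 had a log2 difference of 0.93 (SE 0.281, adjusted p = 0.00935), higher in 9 of 10, and Atp6v1b2 a log2 difference of 0.71 (SE 0.219, adjusted p = 0.0113) by edgeR, higher in 8 of 10. MSUS animal 2 stood at 0 in the shallower table for Atp6v1d, Atp6v1e1, Atp6v1h and Atp6v1b2, and MSUS animals 4 and 6 for Atp6v1c1. Over its 10 libraries that table held 68.5 counts of Atp6v1d, 64.0 of Atp6v1e1, 56.1 of Atp6v1h, 52.8 of Atp6v1b2 and 30 of Atp6v1c1. None of these genes passed the filter on low counts in that table alone, so they could enter the joint test through the deep table.

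The 2 genes called lower were Atp6v0e2, with 44.3 counts in the shallow table, and Atp6v1f, with 47.0. Scaled by library size alone, which moved the median of all features to 1.06, they were at 0.12 and 0.17, still below that median. Atp6v0e2 is an isoform of a small Vo subunit. It was lower in 8 of 10 animals, with a log2 difference of -0.89 (SE 0.289, adjusted p = 0.0156) by edgeR, and was no longer called without Control animal 11 (adjusted p = 0.0684 by edgeR) or MSUS animal 14 (adjusted p = 0.0853). Atp6v1f, whose assignment to 1 locus is uncertain, was lower in only 6 of 10 animals, with a log2 difference of -0.85 (SE 0.300, adjusted p = 0.0260) by edgeR. Its call ended without Control animal 3, 9 or 11 or MSUS animal 2 or 4, at adjusted p values of 0.0868, 0.113, 0.0520, 0.0561 and 0.0532 by edgeR. Atp6v0c, of the proteolipid ring, had a log2 difference of -0.59 (SE 0.242, adjusted p = 0.0557) by edgeR, and with the animal as a replicate block its adjusted p was 0.0429, which adds 1 call. Aqp9, with a log2 difference of -0.10 (SE 0.120, adjusted p = 0.654) by edgeR, and Atp6v0a1, with a log2 difference of 0.09 (SE 0.144, adjusted p = 0.714), did not pass the test.

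**Figure D5:**
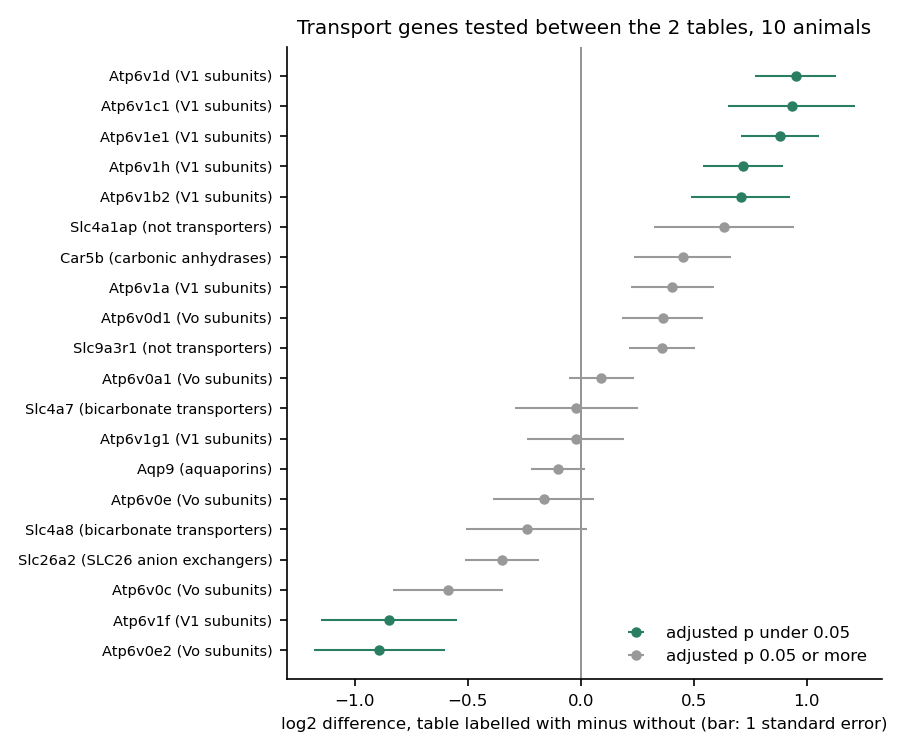
Log2 difference, deep table minus shallow table, for 20 of the 21 transport genes tested (Slc9a exchangers are not drawn), with bars of 1 standard error and green points for an adjusted p under 0.05. The 5 green points on the right are Atp6v1b2, Atp6v1h, Atp6v1e1, Atp6v1c1 and Atp6v1d, from 0.71 to 0.95, and the 2 on the left are Atp6v0e2 and Atp6v1f.

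A list of 20 other genes of acidification, such as V-ATPase assembly factors, Foxi1 (the transcription factor of V-ATPase-rich cells), the sodium pump and chloride channels, was described in the same way. Of the 20, 13 were tested in the deep table, 4 had a higher and 9 a lower estimate in MSUS, and 0 were called, with a median log2 fold change of -0.12. Foxi1 had 6.86 ± 1.35 CPM in Control and 6.07 ± 1.98 CPM in MSUS (SD, n = 5 each). Dmxl2, of the V-ATPase assembly complex, had the smallest p, with a log2 fold change of 0.55 (SE 0.256, adjusted p = 0.863 by edgeR), followed by Atp1b3, a subunit of the sodium pump, with 0.33 (SE 0.174, adjusted p = 0.879 by edgeR). For the shallow table, only 2 were tested and 0 called, among them Clcn5 with 0.16 (SE 0.369, adjusted p = 0.893 by edgeR). Between tables, 10 were tested and 2 were called, both lower in the deep table, where 18.8% of all features were called lower and 19.9% higher: Atp6ap1, an accessory subunit, at -0.63 (SE 0.220, adjusted p = 0.0236 by edgeR) and Clcn5, an endosomal chloride proton exchanger, at -0.74 (SE 0.193, adjusted p = 0.00327 by edgeR).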

How the data were processed

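Small RNA was measured in 20 samples (10 animals, 2 runs). The authors deposited 2 tables of estimated counts per annotated RNA, and of the members' values above 0, 39.4% (deep table) and 42.5% (shallow table) were whole within 1e-06. STAR, edgeR and the GRCm38 build are named in the submitters' processing notes. No source used here gives the counting step. Groups and animal numbers came from the sample titles, and the run of each table from the series' design text. Estimated counts were rounded, which changed library totals by 0.0504 to 0.0992% in the deep table (labelled with size selection) and by 0.266 to 0.689% in the shallow one.

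edgeR 4.0.16 (R 4.3.3) fitted the quasi-likelihood test over all features left by filterByExpr, with TMM scaling and Benjamini-Hochberg adjustment over all of them. The tables were fitted apart for MSUS against Control, and together, over features in both, for the comparison of tables and the interaction. DESeq2 1.42.0, limma 3.58.1 (voom), other scalings, no filter, protein-coding entries only and leaving out each animal were alternatives. On simulated counts, 100 features were changed 2-fold and another 100 were changed 4-fold in the same fit. Of those changed 2-fold, 70% were recovered among 10998 features for MSUS against Control in the deep table. In the shallow one 53% were recovered among 1075 features. Changes under 2-fold, such as the estimates of the members, were not simulated. Exon lengths, coordinates and coding sequences came from GENCODE vM21. Intervals of shares are exact (Clopper-Pearson).

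The members, the gene and marker lists and the tests were chosen with earlier results of these data known. Genes with values in the text are 20 with a known role in the epididymis or in acid transport, the 5 most abundant members of each table by CPM and by CPM per kb, the 5 with the smallest p in each direction of MSUS against Control, members called between tables, the 2 with the smallest p of the interaction, and those of the other acidification genes that were called or had the 2 smallest p. Outside that rule, Atp6v0a2, Atp6v0d2, Atp6v1c2, Atp6v1e2, Atp6v1g2, Atp6v1g3, Aqp1, Aqp2, Car3, Car5a, Slc4a8, Slc4a1ap, Scnn1b, Scnn1g and Foxi1 were named after their values were seen. Values of some genes that entered these fits and counts are not reported here.

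The titles give the same animals in both tables. The main comparison of tables held condition and no term for the animal, so its p-values treat the samples of an animal as independent. Only the fit with the animal as a replicate block, the interaction and the counts of animals rest on the pairing. Over 331 features, each library's deviations from its group mean correlated with those of the same animal in the other table at 0.457 to 0.845, and at most at 0.193 to 0.626 with those of another animal; MSUS animal 2 correlated more with another animal (0.626) than with itself (0.536).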

Additional observations from a re-analysis of the deposited data

Results flagged for a closer look

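Among 58 groups of 5 libraries tested for a value far from the others, 2 were noted, where chance gives about 1 in 20 (2.9). Scnn1a in MSUS animal 6 was at 13.2 CPM in the deep table, while the other MSUS animals lay between 7.07 and 8.46 CPM. In the shallow table, the transport genes took 0.308% of protein-coding counts in MSUS animal 8, below the other 4 MSUS libraries. That library held 43.0 counts on these genes, the fewest of all. No cause was tested for either value.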

How the results depend on the processing

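No setting called a member for MSUS against Control in either table. The count of all features called in the deep table, 0 in the test as described, was 3 with library size only, 48 with no filter, 33 by DESeq2 and 0 to 2 when an animal was left out (2 without Control replicate 3). In the other table it was 1 with library size only, 2 without Control 9, Control 11 and MSUS 14, and 0 when any one animal was left out. With library size only, directions turned for Aqp11 (-0.40), Atp6v1d (-0.54), Car2 (-0.18), Car5b (-0.43), Scnn1a (-0.28) and Slc9a3r1 (-0.33). Atp6v1d was -0.0098 with no filter and Atp6v1e1 0.047 without Control 9, Control 11 and MSUS 14. When an animal was left out, Atp6v0c ran from -0.318 (without MSUS 14) to 0.028 (without Control 9) and Slc4a2 from -0.337 (without MSUS 4) to 0.0084 (without MSUS 14). In the shallow table, Slc9a3r1 was 0.154 on protein-coding entries only, 0.052 by limma-voom and -0.209 to 0.142 when an animal was left out. The ratio of MSUS to Control of the members' mean percent of counts moved from 0.656 to 1.02 with protein-coding counts as the denominator.

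Between tables, the replicate block (paired by animal) called 2430 features against 2217 and 8 members against 7; it added Atp6v0c and changed no other call among the members. All features called were 4632 with library size only, 1032 on protein-coding entries only and 8182 with no filter, and 1804 to 2313 when an animal was left out. Members called higher were 18 with library size only, 14 with no filter and 5 to 7 when an animal was left out; members called lower were 0 with library size only, 0 with no filter and 0 to 3 when an animal was left out. With library size only, Atp6v0e2 was 0.12 and Atp6v1f 0.17, both below the median of all features, 1.06. The cause of these changes was not tested. Of 68 members in the shallow table, 65 did not pass the filter on low counts; with no filter 61 members were fitted and 1 had an unadjusted p under 0.05.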
